A study of Mus musculus with 10 samples.

Results

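Gene counts were examined for 8 genes of the zymogen granule and its release, Gp2, Sycn, Zg16, Cuzd1, Rab3d, Rab27b, Vamp8 and Stxbp2, chosen by symbol from the 24421 genes of the deposited table. All 8 passed the filter on low counts, as did 13688 genes in all. The table holds 10 RNA-seq libraries, each from a piece of pancreas tail of 1 female mouse aged 12 weeks. Per the labels, all mice carried Ptf1aCreER, an inducible Cre recombinase expressed from Ptf1a, a transcription factor gene of the acinar cells, and nTnG, a nuclear fluorescent reporter of Cre activity. Genotypes differed at Insr, which encodes the insulin receptor. The 3 libraries labelled Insr WT had no floxed allele (Insrw/w), the 3 labelled Insr Het had 1 (Insrw/f) and the 4 labelled Insr KO had 2 (Insrf/f). Cre acts only in cells that express Ptf1a, while the RNA came from the whole piece, so the Insr of other cells stayed in the measurement. Libraries are named by genotype label and mouse number, as in WT-2404.

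Acinar cells of the pancreas store digestive proenzymes in zymogen granules below the apical membrane. A rise of calcium after a meal lets the granules fuse with that membrane. Proteins of the granule coat and content package and hold the enzymes, and Rab GTPases, SNARE proteins and a Sec1/Munc18 protein carry out docking and fusion. Among the 8 genes, Gp2 encodes the main glycoprotein of the granule membrane, anchored by a lipid. Sycn encodes syncollin, which lines the inner face of that membrane, and Zg16 a lectin-like protein of the granule. Cuzd1 encodes a membrane protein with CUB and zona pellucida domains. Rab3d and Rab27b encode GTPases on the granule surface, Vamp8 the granule SNARE also called endobrevin, and Stxbp2 the syntaxin-binding protein Munc18b.

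The start sites of 3 granule genes and of Rab3d are shown, chosen by their scaled levels (CPM, defined below). In CPM each was lowest in the same library, WT-2404, and varied more between libraries than Rab27b, Vamp8 and Stxbp2. Each line gives the 250 bases before the RefSeq start site (GRCm38.p6), 5' to 3' on the gene's strand. They lie at chr7:119459273-119459522 (minus strand) for Gp2, chr7:28540635-28540884 (plus strand) for Sycn, chr7:131322293-131322542 (minus strand) for Cuzd1 and chr9:21918184-21918433 (minus strand) for Rab3d. Capitals mark matches to any of 5 motifs searched on both strands, with no overlap between matches. The first motif was TATAAA, the second and the third were the E-box forms CAGCTG and then CATATG, the fourth was TTTCCCA and the last was AAGGTCA.
Gp2: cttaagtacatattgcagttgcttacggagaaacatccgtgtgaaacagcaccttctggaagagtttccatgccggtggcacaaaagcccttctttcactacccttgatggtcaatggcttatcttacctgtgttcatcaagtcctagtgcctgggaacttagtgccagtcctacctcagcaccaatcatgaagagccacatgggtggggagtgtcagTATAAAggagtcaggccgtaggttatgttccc
Sycn: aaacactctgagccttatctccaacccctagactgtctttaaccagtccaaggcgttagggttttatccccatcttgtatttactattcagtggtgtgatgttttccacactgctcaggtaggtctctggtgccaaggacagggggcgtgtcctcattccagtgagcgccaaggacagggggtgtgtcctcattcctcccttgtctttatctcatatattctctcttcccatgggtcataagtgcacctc
Cuzd1: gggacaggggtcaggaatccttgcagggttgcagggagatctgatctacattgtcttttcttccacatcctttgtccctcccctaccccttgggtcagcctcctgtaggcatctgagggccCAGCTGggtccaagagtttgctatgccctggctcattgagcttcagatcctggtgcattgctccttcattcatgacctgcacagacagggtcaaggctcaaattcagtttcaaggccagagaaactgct
Rab3d: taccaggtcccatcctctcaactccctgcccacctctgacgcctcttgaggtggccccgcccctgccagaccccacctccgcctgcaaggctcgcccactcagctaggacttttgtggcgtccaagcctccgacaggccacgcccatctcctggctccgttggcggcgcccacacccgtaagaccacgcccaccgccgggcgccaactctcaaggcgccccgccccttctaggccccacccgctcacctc
Gp2 held TATAAA from 32 to 27 bases before its start, letters found in 12.4% of 32851 promoter windows of this length. Cuzd1 held CAGCTG from 129 to 124 bases before its start, found in 4271 of those windows. The windows of Sycn and Rab3d had none of the 5 motifs, which says only that these letters are not in those 250 bases. CATATG was found in 3.46% of all windows, TTTCCCA in 6.82% and AAGGTCA in 4.08%. The GC content was 48.4% for Gp2, 49.2% for Sycn and 53.2% for Cuzd1, near the median of 52.4% over all windows. Rab3d had a GC content of 69.2%, and 9.81% of windows exceeded it. The promoter table held 6 of the 8 genes, and Vamp8 and Stxbp2 also had none of the motifs in their windows.

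Library quality and makeup bear on all values that follow. Total gene counts ran from 11718559 to 19024351 per library, with overlapping ranges of the groups. The TMM factors that adjust the library size ran from 0.596 to 3.54, the latter in WT-2404. With both, 3 counts stood at 0.0501 to 0.395 CPM (counts scaled by the TMM-adjusted library size). The least abundant of the 8 genes, Rab27b, had at least 100 counts in every library. A list of 28 digestive enzyme genes, the defining products of acinar cells, took only 15.7% of the counted reads of WT-2404, while WT-1860 had 58.3%, WT-2067 had 71.4%, and the remaining libraries had 71.2% to 76.1% (Het) and 62.3% to 77.3% (KO). WT-2404 therefore stood apart, and results are given with and without it. The text for this library names an RNeasy Micro kit and that for the other 9 an RNeasy kit, and whether the extraction differed is not stated. Among KO libraries, KO-2124 had the lowest enzyme share and the highest share of reads outside genes, 8.71%. In bulk tissue, fewer acinar cells and less RNA per acinar cell cannot be told apart. Insr, the targeted gene, was at 21.0 to 40.5 CPM in WT, 28.2 to 44.2 CPM in Het and 22.7 to 35.5 CPM in KO libraries. For Insr, edgeR gave a KO against WT log2 change of 0.09 (SE 0.26, adjusted p = 0.864), so its gene-level counts do not check the labels.

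The 8 genes fell into 2 tiers of abundance. Zg16, Sycn, Gp2 and Cuzd1 ranked the 17th, the 18th, the 23rd and the 37th of 24421 genes by mean CPM, and together took 0.680% of gene counts in WT-2404 and 2.60% to 3.25% in the other 9 libraries. Rab3d ranked 271, Vamp8 768, Stxbp2 1426 and Rab27b 4619. Per kilobase of annotated exon (GENCODE M21), Sycn was the most abundant at 21784 ± 10684 CPM per kilobase (SD, n = 10). Zg16 followed at 11502 ± 5316, Gp2 at 2184 ± 1234 and Cuzd1 at 566 ± 286 CPM per kilobase (SD, n = 10). On the same scale Rab3d stood at 27.9 ± 11.1, Vamp8 at 22.3 ± 4.63, Stxbp2 at 7.90 ± 1.09 and Rab27b at 1.17 ± 0.298 (SD, n = 10). Neighbours in this order kept their places in 10 of 10 libraries, except that Rab3d exceeded Vamp8 in 7 of 10. None of the 8 genes shared exon bases with another annotated gene on either strand.

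Gp2, the granule membrane glycoprotein, had a fold change near that of Zg16 in KO against WT, and the order of these 2 genes depended on the setting. WT-2404 had 590 CPM of it, WT-1860 had 1508 and WT-2067 had 3842 CPM. In Het libraries Gp2 stood at 5528, 5495 and 4140 CPM, all above the WT libraries. In KO libraries it was at 6232, 6265 and 8290 CPM and at 1743 CPM in KO-2124, which lay inside the WT range. WT libraries averaged 1980 ± 1677 CPM (SD, n = 3), Het libraries 5055 ± 792 CPM (SD, n = 3) and KO libraries 5633 ± 2766 CPM (SD, n = 4). For Gp2 in KO against WT, edgeR gave a log2 fold change of 1.51 (SE 0.68, adjusted p = 0.204). The two-sided exact permutation p of the same groups was 0.143. For Het against WT the change of Gp2 was 1.35 (SE 0.71, edgeR adjusted p = 0.289). Neither passed the threshold of 0.05. Without WT-2067, the WT library nearest to the others, the Gp2 change in KO against WT was 2.43 and passed (edgeR adjusted p = 0.0398). In that setting 1932 of all 14172 tested genes passed. Without WT-2404 the Gp2 change was 1.06 (edgeR adjusted p = 0.552).

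Sycn and Zg16, the abundant granule content genes, shared 1 very low library. WT-2404 had 731 CPM of Sycn, whereas WT-1860 had 7666 and WT-2067 had 13176 CPM. Its Het values were 10461, 17488 and 14738 CPM and its KO values 13110, 19238, 6058 (KO-2124) and 18455 CPM. The Sycn ranges of WT and both other groups overlapped, since WT-2067 exceeded a Het and 2 KO libraries. For Zg16, WT-2404 had 450 CPM, WT-1860 had 6909 and WT-2067 had 13198 CPM. The Het libraries had 15955, 19827 and 17134 CPM of Zg16, all above WT, and the KO libraries 15937, 22123, 12086 (KO-2124) and 20964 CPM. Zg16 thus varied 49.2-fold between its lowest and highest library, more than any other of the 8 genes. That rank rested on WT-2404. Without it the SD of log2 CPM was 0.52 for Zg16, below Gp2 (0.85), Cuzd1 (0.62) and Sycn (0.58). In KO against WT the log2 change came to 1.38 for Zg16 (SE 0.83, edgeR adjusted p = 0.322) and 0.98 for Sycn (SE 0.80, edgeR adjusted p = 0.463). In Het against WT it was 1.36 for Zg16 (SE 0.87, edgeR adjusted p = 0.375) and 0.98 for Sycn (SE 0.84, edgeR adjusted p = 0.505). Without WT-2404 the KO against WT values were 0.81 and 0.43. The exact permutation p for KO against WT was 0.0571 for Zg16 and 0.2 for Sycn (two-sided), where 0.0286 is the smallest that 3 against 4 mice allow.

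Cuzd1, the CUB domain protein of the granule membrane, was at 153, 611 and 1262 CPM in WT-2404, WT-1860 and WT-2067. Het libraries had 1531, 2189 and 1160 CPM of Cuzd1, and KO libraries 1257, 1826, 753 (KO-2124) and 2025 CPM. The highest WT library lay above 1 Het and 2 KO libraries, so the ranges overlapped. KO libraries differed from WT by 1.12 on the log2 scale for Cuzd1 (SE 0.61, edgeR adjusted p = 0.276), and Het libraries by 1.27 (SE 0.64, edgeR adjusted p = 0.279). It was 0.63 and 0.80 without WT-2404.

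Rab3d, the granule Rab GTPase, followed the granule cargo genes with a smaller amplitude. It was at 36.5, 63.0 and 131 CPM in WT-2404, WT-1860 and WT-2067, at 120, 162 and 128 CPM in Het, and at 124, 154, 70.6 (KO-2124) and 182 CPM in KO libraries. WT-2067 was the only WT library that reached into the Het and KO ranges. The low CPM of Rab3d in WT-2404 rests on the TMM factor, 3.54 there and 0.596 to 1.56 in the other 9 libraries. As a share of gene counts, Rab3d was highest in WT-2404, at 0.0129%, against 0.00959% to 0.0115% in the other 9. On the log2 scale Rab3d differed from WT by 0.79 in KO (SE 0.42, edgeR adjusted p = 0.266) and by 0.83 in Het libraries (SE 0.44, edgeR adjusted p = 0.297). Without WT-2067 these were 1.42 and 1.46 and both passed (edgeR adjusted p = 0.0329 and 0.0447). That library had the highest Rab3d level of the WT group, so leaving it out lowers the WT mean. In the same setting 1932 (KO against WT) and 1160 (Het against WT) of all 14172 tested genes passed. Without WT-2404 the Rab3d changes were 0.43 and 0.50. Rab27b, the other granule GTPase, was at 9.12 to 12.3 CPM in WT, 10.2 to 16.2 CPM in Het and 7.75 to 18.5 CPM in KO libraries. Its lowest and highest values were both in the KO group (KO-2124 and KO-2126), and edgeR gave it 0.24 on the log2 scale in KO against WT (SE 0.27, adjusted p = 0.597).

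Vamp8 and Stxbp2, the fusion genes, varied least in CPM, a ranking that rests on TMM scaling. Vamp8 was at 35.01, 43.2 and 47.8 CPM in WT-2404, WT-1860 and WT-2067, at 58.8, 60.3 and 56.8 CPM in Het, and at 48.7, 70.1, 39.4 (KO-2124) and 55.8 CPM in KO libraries. All Het libraries lay above all WT libraries, and 3 of the 4 KO libraries did. As a share of gene counts, before TMM scaling, Vamp8 was highest in WT-2404, at 0.0124%, against 0.00332% to 0.00673% in the other 9. The share of Stxbp2 was 0.00977% in WT-2404 and 0.00187% to 0.00630% in the other 9. By share both thus varied more than Rab3d, which ran from 0.00959% to 0.0129%. Vamp8 differed from WT by 0.48 on the log2 scale in Het (SE 0.23, edgeR adjusted p = 0.266) and by 0.35 in KO libraries (SE 0.22, edgeR adjusted p = 0.342). Stxbp2 was at 27.7 to 40.4 CPM in WT, 30.9 to 34.6 CPM in Het and 26.3 to 38.5 CPM in KO libraries. With all 10 libraries its ranges overlapped throughout. Log2 differences from WT were -0.09 in KO (SE 0.19, edgeR adjusted p = 0.79) and -0.09 in Het libraries (SE 0.20, edgeR adjusted p = 0.811). Without WT-2404, the Stxbp2 levels of WT-1860 (40.4 CPM) and WT-2067 (35.2 CPM) lay above all Het libraries. In that setting 15.1% of all genes had lower Het ranges. Both genes are also used by secretory and immune cells other than acinar cells.

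**Figure D1:**
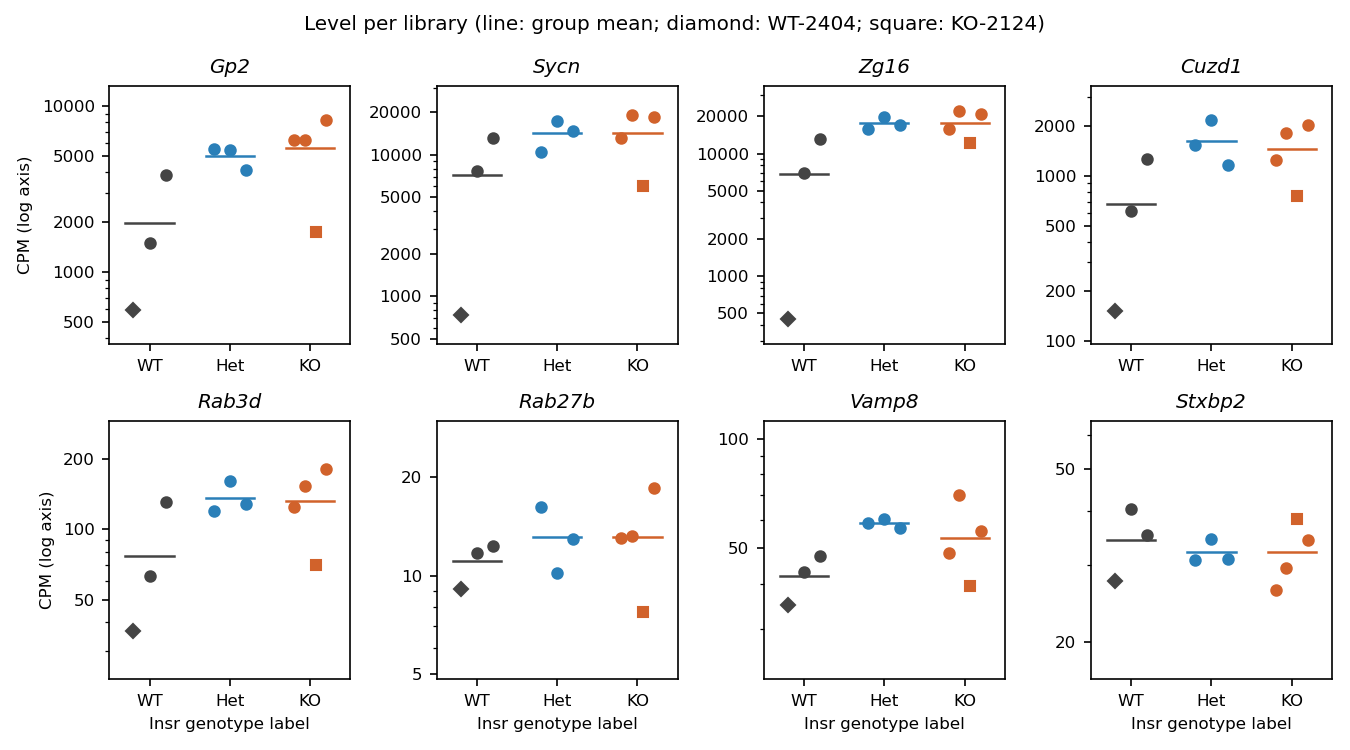
Level of each of the 8 genes in CPM on a log axis, by Insr genotype label, with 1 point per library and a line at the group mean (WT n = 3, Het n = 3, KO n = 4). WT-2404 (diamond) is the lowest library for Gp2, Sycn, Zg16, Cuzd1, Rab3d and Vamp8, and KO-2124 (square) is the lowest KO library for each gene except Stxbp2.

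Across the 8 genes, none passed the adjusted threshold in any comparison by edgeR's quasi-likelihood test (0 of 8), as in the whole table, where 0% of 13688 genes passed. DESeq2 also called 0 of the 8, though over the whole table it called 1009 (KO against WT) and 400 genes (Het against WT). In KO against WT, 1 of 8 genes, Gp2, had an unadjusted p under 0.05, beside 23.5% of all tested genes (9.61% higher and 13.9% lower). Of the 8 genes, 7 had a positive and 1 a negative fold change, where 51.9% of all genes were positive and 48.1% negative, and the median log2 fold change was 0.88 beside 0.03 over all genes. No gene of the 8 had KO and WT ranges that did not overlap (0 genes), beside 6.74% of all genes with higher and 9.15% with lower KO ranges. That count rested on KO-2124: without it Gp2, Zg16, Rab27b and Vamp8 had KO ranges wholly above WT (4 of 8, beside 14.5% of all genes), and 3 of 8 had an unadjusted p under 0.05, beside 28.3% of all genes. In Het against WT, 0 of 8 had an unadjusted p under 0.05, beside 19.8% of all genes (8.26% higher and 11.6% lower). Again 7 of 8 were positive, beside 50.3% of all genes (49.7% were negative), with a median of 0.91 beside 0.00463. Gp2, Zg16 and Vamp8 had Het ranges wholly above WT (3 of 8), beside 11.3% of all genes higher and 13.5% lower. The KO and Het comparisons share the WT libraries, so their like values are not independent.

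Scaling and single libraries set the size of these values. Without WT-2404, the medians over the 8 genes were 0.43 (KO against WT) and 0.48 (Het against WT), and 7 of 8 stayed positive in each. Without WT-2067 the medians were 1.59 and 1.62, with KO against WT changes of 2.28 for Zg16, 1.95 for Cuzd1 and 1.77 for Sycn. Scaling by library size alone, which moved the median of all genes to -1.17 (KO against WT) and -1.36 (Het against WT), turned Rab3d, Rab27b and Vamp8 negative in both comparisons. All 3 stayed above that shift, with Rab3d at -0.15, Vamp8 at -0.83 and Rab27b at -0.98 in KO against WT. With the log2 ratio of enzyme to other counts as a covariate, the KO against WT log2 fold changes were 0.59 for Gp2 (SE 0.42), 0.33 for Zg16 (SE 0.23) and 0.15 for Cuzd1 (SE 0.28), and Sycn became -0.21 (SE 0.25).

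**Figure D2:**
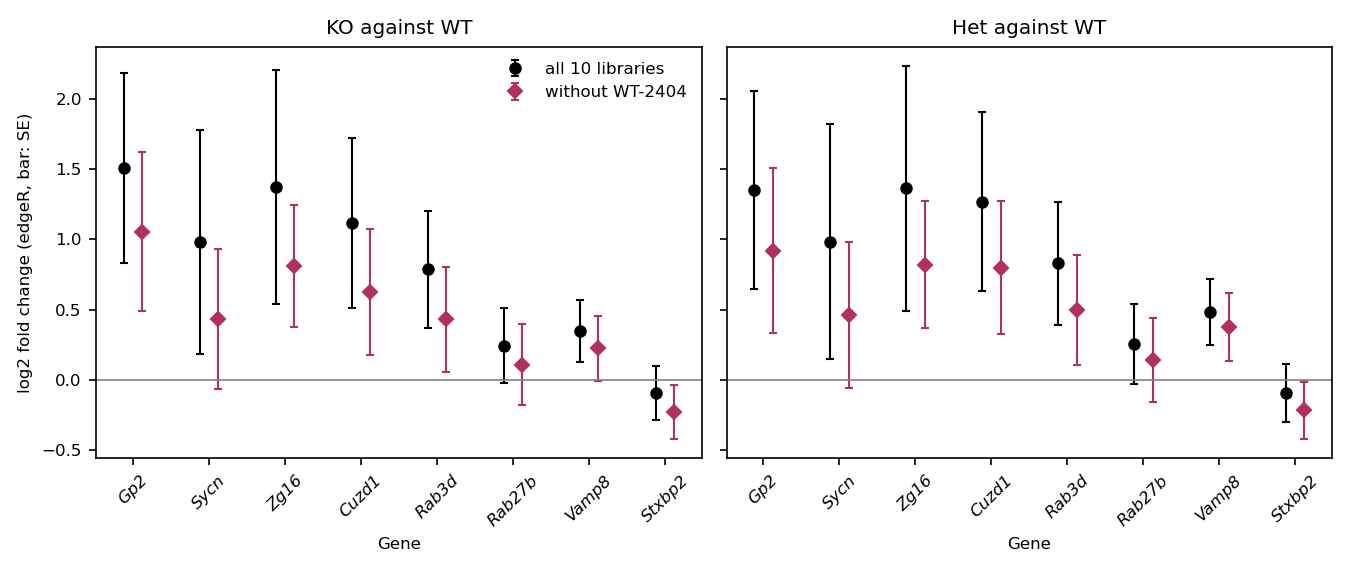
Log2 fold change of each gene with its SE from edgeR, in KO against WT (left) and Het against WT (right), from all 10 libraries (circles) and without WT-2404 (diamonds). Gp2 falls from 1.51 to 1.06 in KO against WT without that library, and 7 of 8 genes stay above 0.

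KO and Het libraries were compared to see what differed with the other floxed allele. No gene of the 8 passed by edgeR or DESeq2 (0 genes), 0 of 8 had an unadjusted p under 0.05, beside 0.752% of all genes (0.402% higher, 0.351% lower), and no ranges separated, beside 1.3% of all genes higher and 1.16% lower in KO. The log2 fold changes ran from -0.15 for Cuzd1 (SE 0.59) to 0.16 for Gp2 (SE 0.65), with 3 of 8 positive, beside 51.5% of all genes positive and 48.5% negative. Sycn, at -0.0014 (SE 0.78), and Zg16, at 0.01 (SE 0.80), had SEs so wide that changes of the size seen against WT lay within 2 SEs. SEs were smaller for Stxbp2, at 0.00056 (SE 0.19), and Vamp8, at -0.13 (SE 0.22). Without KO-2124 the count of genes with a positive change moved from 3 to 6 of 8, where 45.9% of all genes were positive. Gp2 was then higher in every KO than in every Het library (1 of 8), beside 3.13% of all genes. Without WT-2404, whose removal changes the scaling, the count of positive changes was 1 of 8, beside 48.7% of all genes.

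Since the enzyme share differed between libraries, each gene was also set against the summed counts of the enzyme list in the same library. This ratio needs no scaling between libraries. Sycn kept the most constant ratio over all 10 libraries, from -6.36 to -5.61 on the log2 scale (SD 0.21), and WT-2404, at -5.93, lay inside that range. In this library Sycn was thus low in proportion to the enzymes. Zg16 was lower still, with a log2 ratio of -6.63 in WT-2404 against -5.95 to -5.25 in the other 9. Gp2 and Cuzd1 were less reduced, at -6.24 against -8.04 to -7.00 for Gp2 and -8.18 against -9.49 to -9.09 for Cuzd1. For the 4 exocytosis genes the ratios in WT-2404 lay furthest above the median of the other 9 libraries. The gap was 2.42 for Rab3d, 3.69 for Vamp8, 3.73 for Rab27b and 4.11 for Stxbp2 on the log2 scale. As a share of gene counts each of these genes was highest in WT-2404, while in CPM each was below the median of the other 9.

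In the other 9 libraries, 2 genes kept a nearly fixed proportion to the enzymes. The SD of the log2 ratio was 0.12 for Cuzd1 and 0.14 for Rab3d, compared with 0.22 for Zg16, 0.23 for Sycn and 0.34 for Gp2. It was 0.42 for Vamp8, 0.52 for Rab27b and 0.74 for Stxbp2. KO-2124 departed in opposite directions for 2 granule genes. Its Zg16 ratio of -5.25 was the highest of the 10 libraries and its Gp2 ratio of -8.04 the lowest. Gp2 ratios of the KO libraries ran from -8.04 to -7.00 and those of WT libraries other than WT-2404 were -7.95 and -7.73, so they overlapped. These ratios are given as a description, with no test.

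**Figure D3:**
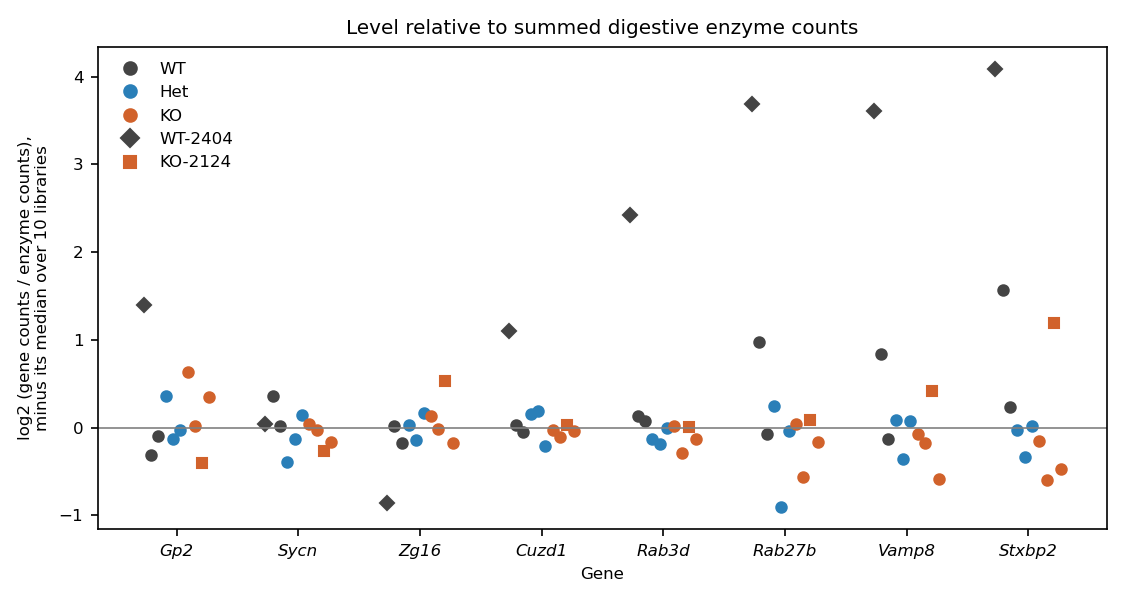
Log2 ratio of each gene's counts to the summed digestive enzyme counts of the same library, minus the gene's median over the 10 libraries, with 1 point per library. WT-2404 (diamond) lies within the other libraries for Sycn, below them for Zg16 and above them for the other 6 genes, most of all for Stxbp2.

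Marker levels of other cell types also varied with the groups, though edgeR's adjusted threshold was passed by no gene of the lists (0 genes). Of 12 myeloid marker genes, all 12 were counted in every library, and their summed level was 447 to 1707 CPM in WT, 236 to 363 in Het and 139 to 501 in KO libraries, highest in WT-2404, with KO-2124 inside the WT range. The 13 ductal markers summed to 1129 to 1721 CPM in WT, 580 to 981 in Het and 579 to 974 in KO libraries, with none at 0. The 10 fibroblast markers summed to 1531 to 5497 CPM in WT, 583 to 1203 in Het and 515 to 1373 in KO. For KO against WT, an unadjusted edgeR p under 0.05 was found for 12 myeloid, 9 ductal and 7 fibroblast markers, all lower. Over all tested genes 13.9% were lower at that threshold. DESeq2 called 10, 7 and 7 markers of these lists lower after adjustment, where it called 1009 of 13688 genes in all. The edgeR counts without WT-2404 were 3, 6 and 7, where 9.42% of all genes had such a p in either direction. Islet, adipocyte and endothelial lists went the other way, with median log2 fold changes of 0.72, 0.61 and 0.31 in KO against WT and 1.12, 1.24 and 0.20 in Het against WT. These medians without WT-2404 were 0.22, 0.63 and 0.24 in KO against WT and 0.64, 1.05 and 0.17 in Het against WT. The part of these cells in the levels of Vamp8, Stxbp2 and Rab27b was not tested. Zg16 and its relatives are also known from goblet cells. The 12 goblet and gastric-type markers summed to 351 to 2605 CPM in WT, 1926 to 2930 in Het and 1618 to 2069.6 in KO libraries, with the gastric-type gene Tff2 at 188 to 1959 CPM and the goblet mucin gene Muc2 at 0 to 0.351 CPM. Of the 10 tested genes of this list, 9 were lower in KO against WT (median log2 fold change -1.52) and 8 in Het against WT (median -0.18). Its medians without WT-2404 were -1.87 and -0.65. The part of goblet and gastric-type cells in the level of Zg16 was not tested. The 8 acinar transcription factor genes summed to 194 CPM in WT-2404, 742 and 953 in the other WT libraries, 843 to 935 in Het and 790 to 1271 in KO. Bhlha15, the factor known as MIST1 that sets granule organisation and Rab3d expression, was at 11.5 CPM in WT-2404, 118 and 237 CPM in the other WT libraries, 186 to 253 CPM in Het and 155 to 434 CPM in KO libraries. In KO against WT edgeR gave Bhlha15 a log2 change of 1.07 (SE 0.73, adjusted p = 0.383). That is the top of its list, whose 7 tested genes ran from 0.40 to 1.07 with a median of 0.63. The part of Bhlha15 in the level of Rab3d was not tested.

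The tested genes that kept the most constant ratio to each member over the 10 libraries were then listed. The measure was the SD of the log2 ratio, and the libraries carry the differences in enzyme share described above. For Zg16 they were the elastase gene Cela3b (SD 0.14), the colipase gene Clps (0.18) and Atp2c2 (0.19), a calcium and manganese pump gene, where the median tested gene had an SD of 1.72. Cuzd1 was closest to the trypsinogen gene Prss2 (0.16), the lipase-related gene Pnliprp1 (0.19) and the kallikrein gene Klk1 (0.20). Sycn was closest to the carboxypeptidase gene Cpa1 (0.19), the trypsinogen-like gene 2210010C04Rik (0.19) and Ero1lb (0.20), an oxidase of disulfide formation in the ER. Gp2 was closest to the asparagine synthetase gene Asns (0.24), Bmp3 (0.26) and Pnliprp1 (0.27). Without WT-2404 the places of these genes shifted: Cpa1 ranked 21, Ero1lb 31 and 2210010C04Rik 33 for Sycn, and Atp2c2 30 and Clps 48 for Zg16, while Cela3b ranked 3 for Zg16, Prss2 3 for Cuzd1 and Asns 1 for Gp2. Trypsinogen genes have near-identical copies, so their counts are uncertain.

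Rab3d had as its nearest genes Aldh7a1 (0.080), Srpr (0.086), which encodes a receptor of the signal recognition particle at the ER, and Tmem97 (0.094). None of these is a digestive enzyme. The nearest genes of Rab27b were Hspa13 (0.13), Nrbf2 (0.14) and Det1 (0.16), those of Vamp8 were Zcrb1 (0.072), Polr2j (0.11) and Itfg1 (0.11), and those of Stxbp2 were Gga3 (0.097), Ccdc61 (0.10) and BC037034 (0.10). Among the 8 genes themselves, the most constant pair over 10 libraries was Rab27b with Vamp8 (SD 0.30), followed by Gp2 with Cuzd1 (0.35) and Vamp8 with Stxbp2 (0.39). Without WT-2404 it was Sycn with Rab3d (0.19), followed by Cuzd1 with Rab3d (0.20).

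Other genes of granules and exocytosis were read from 4 lists, none of whose genes passed the adjusted threshold in edgeR in any comparison (0 genes). DESeq2 called Spink1 and Tmed2 higher in KO against WT and Unc13d lower in Het against WT, and no other gene of the lists. For scale, 9.61% of all tested genes were higher and 13.9% lower at an unadjusted edgeR p under 0.05 in KO against WT. KO ranges lay wholly above WT for 6.74% of all genes and wholly below for 9.15%. The list of other granule cargo and membrane proteins had 14 tested genes. Of these 11 had positive and 3 negative fold changes in KO against WT, with a median of 0.36, and 2 higher and 2 lower had an unadjusted p under 0.05. Spink1, the trypsin inhibitor stored in the granules, was at 1468 ± 290 CPM in KO (SD, n = 4) and 611 ± 406 CPM in WT libraries (SD, n = 3), with a log2 fold change of 1.27 (SE 0.49, edgeR adjusted p = 0.157). Tmed2, a cargo carrier of the early secretory pathway, had 0.72 (SE 0.24, edgeR adjusted p = 0.126), and both had KO and Het ranges wholly above WT. Tcn2, a vitamin B12 carrier gene, had -0.54 (SE 0.23). Umod, a close relative of Gp2, was at 2.81 ± 0.998 CPM in KO (SD, n = 4) and 1.57 ± 1.201 CPM in WT (SD, n = 3).

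The SNARE list had 13 tested genes, 6 positive and 7 negative in KO against WT, with a median of -0.06 and an unadjusted p under 0.05 for 2 lower genes. Vamp3, a relative of Vamp8, and Snap23, a partner SNARE at the plasma membrane, had KO ranges wholly below WT, with log2 fold changes of -0.43 (SE 0.17, edgeR adjusted p = 0.173) and -0.44 (SE 0.20, edgeR adjusted p = 0.202). Vamp2, the granule SNARE also used by neurons, was at 26.7 ± 5.72 CPM in KO (SD, n = 4) and 23.3 ± 7.66 CPM in WT (SD, n = 3). Napa, which helps recycle SNARE complexes, had 0.49 (SE 0.23).

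Of 13 tested Sec1/Munc18, priming and calcium sensor genes, 9 were positive and 4 negative in KO against WT, with a median of 0.30 and an unadjusted p under 0.05 for 2 higher and 1 lower. The priming gene Cadps2 had 0.68 (SE 0.28), the tomosyn gene Stxbp5 had 0.62 (SE 0.28) and Unc13d, a priming gene of immune cell granules, had -1.08 (SE 0.45, edgeR adjusted p = 0.179) with KO ranges wholly below WT. Unc13d rests on a lowest count of 5. Stxbp3, a relative of Stxbp2, had -0.03 (SE 0.21). In the list of 21 tested Rab and effector genes, 15 were positive and 6 negative, with a median of 0.34 and an unadjusted p under 0.05 for 1 higher and 1 lower. Exph5, which encodes a binding partner of Rab27, was at 6.41 ± 1.31 CPM in KO (SD, n = 4) and 3.41 ± 1.204 CPM in WT (SD, n = 3), with separate ranges and 0.90 (SE 0.30, edgeR adjusted p = 0.129). Sytl2, another Rab27 partner gene, had -1.02 (SE 0.46) and Rab4a 0.76 (SE 0.35). Rab3a had 0.92 (SE 0.44), Rab3b 0.88 (SE 0.64) and Rab27a 0.27 (SE 0.28).

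In Het against WT the positive counts were 12 of 14 granule, 3 of 13 SNARE, 11 of 13 priming and 19 of 21 Rab genes, with medians of 0.47, -0.10, 0.35 and 0.48. An unadjusted p under 0.05 was found there for 4, 1, 1 and 2 higher genes of the same lists, beside 8.26% of all genes. It was found for 0, 1, 1 and 0 lower genes, beside 11.6% of all genes. In KO against Het 1 granule gene, lower in KO, had an unadjusted p under 0.05, beside 0.351% of all genes. Without WT-2404, positive counts in KO against WT were 10 of 14, 4 of 13, 9 of 13 and 14 of 22, with medians of 0.13, -0.05, 0.11 and 0.17, beside 0.03 over all genes. In Het against WT without it, 5 of 13 SNARE genes were positive. The enzyme list, for scale, had a KO against WT median of 1.17 with all 10 libraries and 0.62 without WT-2404.

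**Figure D4:**
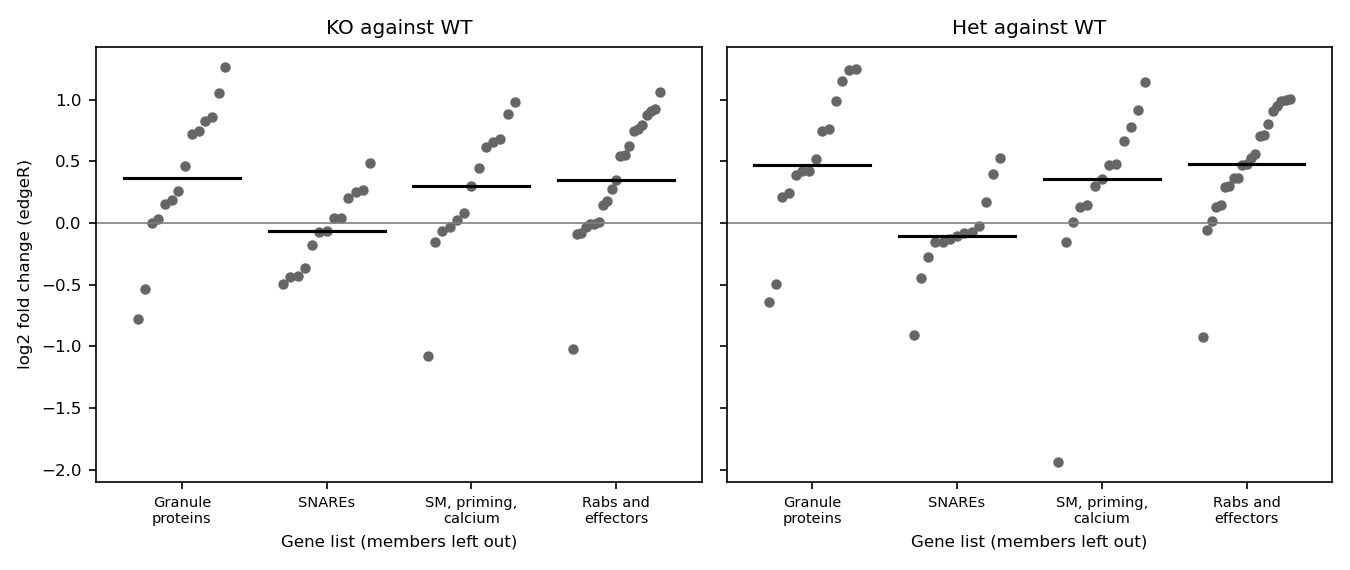
Log2 fold change from edgeR of each tested gene in 4 lists of granule and exocytosis genes, in KO against WT (left) and Het against WT (right), with the 8 genes left out, 1 point per gene and a line at the list median. The SNARE list lies around 0, with medians of -0.06 and -0.10, and the Rab list has medians of 0.34 and 0.48.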

How the data were processed

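The authors deposited whole-number counts for each gene symbol, 1 column per mouse, not normalized. Per the labels' protocols, the text of 1 library (WT-2404) describes frozen, pulverised tail pieces and a micro-scale column kit. The text of the other 9 gives a standard column kit and stranded mRNA libraries. The submitters' processing notes name DRAGEN, STAR, Cufflinks and the build mm10, with no role for each; the annotation and strand setting are not given in the sources used here. All groups share another allele that, like the result of 1 gene, is not reported here. The labels count 4 WT mice, of which 3 were analysed here, and nothing is stated on litters or batches.

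All 10 columns were matched to samples by name (0 columns left over). The 2 rows that name no gene, with 2.59% to 8.71% (no feature) and 0.101% to 0.584% (ambiguous) of counts, stayed out. edgeR 4.0.16 (R 4.3.3) tested 13688 genes that passed filterByExpr (minimum count 10), with TMM scaling and the quasi-likelihood test (robust, two-sided) in 1 fit over 10 libraries without covariates, adjusted by Benjamini and Hochberg's method over all genes at 0.05. SEs come from the quasi-F statistic. CPM uses TMM-scaled library sizes, and log2 CPM a prior count of 2. Exact permutation tests compared log2 CPM of single genes. Alternatives were DESeq2 1.42.0, library size alone, scaling without enzymes, a looser filter, an enzyme covariate, only the groups compared, and leaving out each library. The code was tested on simulated counts. Members and lists were chosen with earlier results of these data known. Named genes are the 8 members, close paralogs, up to 3 genes per list with the smallest KO against WT p, and the 3 with the most constant ratio to each member; Bhlha15, Muc2, Tff2 and Insr serve as reference levels, and Muc2 and Tff2 were chosen after their values were seen. Libraries of a group differed far beyond counting noise (chi-square per degree of freedom 28.7 to 1041), so each counted as 1 replicate. Intervals cover the spread between mice, and read counts without molecular identifiers are not independent molecules. The neutrophil and mast cell (12.9 to 108 CPM summed), lymphoid (2.43 to 38.7), goblet and gastric-type (351 to 2930), islet (462 to 9429), endothelial (87.1 to 172) and adipocyte (32.7 to 83.8) lists were also summed per library.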

Additional observations from a re-analysis of the deposited data

How the results depend on the processing

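None of the 8 genes was called in any comparison under 5 of the settings (DESeq2, library size alone, scaling without enzymes, the looser filter, the enzyme covariate) or with only the groups compared. Called genes over the whole table moved from 0 to 1009 (KO against WT) and 400 (Het against WT) with DESeq2, and to 2841 and 3140, all lower, by library size alone. Leaving out single libraries gave 0 to 1932 genes and 0 to 2 of the 8 in KO against WT, 0 to 1160 and 0 to 1 in Het against WT, and 0 in KO against Het. The highest values came without WT-2067, where 14172 genes were tested. Signs changed by library size alone in KO against WT for Rab3d (-0.15), Rab27b (-0.98) and Vamp8 (-0.83), and in Het against WT for Rab3d (-0.14), Rab27b (-0.98) and Vamp8 (-0.78). With the enzyme covariate they changed for Sycn (-0.21 and -0.17) and Rab27b (-0.035 and -0.014). In KO against Het, where values lay near 0, signs changed for Stxbp2 with DESeq2 (-0.0047) and with scaling without enzymes (-0.015), for Zg16 with the latter (-0.0097), for Rab27b by library size alone (0.0040) and for Sycn with the looser filter (0.0024) and only the groups compared (0.0066). Leaving out single libraries moved KO against Het from -0.091 to 0.43 for Gp2, -0.18 to 0.22 for Sycn, -0.11 to 0.13 for Zg16, -0.35 to 0.12 for Cuzd1, -0.23 to 0.14 for Rab3d, -0.22 to 0.17 for Rab27b and -0.12 to 0.087 for Stxbp2. Stxbp2 ran from -0.23 to 0.034 in KO against WT and from -0.22 to 0.035 in Het against WT. Of the counts added after the data were seen, leaving out KO-2124 also moved positive Rab genes in KO against Het from 5 to 8. Among those counts, the 8 genes' unadjusted calls in KO against WT were 1 with all libraries, 3 without KO-2124 and 0 without WT-2404. The shares over all tested genes were 23.5%, 28.3% and 9.42% in the same order. Zg16 exceeded Gp2 in KO against WT by library size alone (0.84 against 0.69), without WT-1860 (1.38 against 1.34) and without KO-2126 (1.29 against 1.26). The cause was not tested. No paired analysis was possible because the labels give mouse numbers that no 2 groups share.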
